A study of Mus musculus with 2 samples.

Results

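Imprinted genes are expressed mainly from the maternal or the paternal copy, depending on a methylation mark set in the egg or the sperm. Many act on growth of the embryo and placenta. Imprinted genes tend to lie in clusters that share a control region. The 10 genes described here lie outside the Dlk1 locus. Mest, Sgce, Ndn, Peg3, Snrpn and Igf2 are known as paternally expressed, and H19, Igf2r and Grb10 as maternally expressed in most tissues. Gnas gives transcripts of different parental origin depending on the promoter used. An array measures total RNA of a gene and not its parental copy, so the grouping by allele is background.

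The genes were found by their symbol, current or older, in the annotation of the array. Of the 10 genes, 9 were named by at least 1 probe set, with 17 probe sets in all of 12488 on the array. A probe set is a group of short probes for one transcript. For 8 genes at least 1 probe set carried that symbol alone. The probe set of H19 also carried the symbol Mir675, a microRNA gene inside H19, so its values are given under both names and are not counted as H19. Snrpn was not analysed here.

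RNA came from mesoangioblasts, progenitors found along blood vessels whose progeny include several types of mesodermal cell. Clones D16 and D351 were both grown from single cells of the dorsal aorta of C57BL6 mouse embryos at embryonic day 9.5, after 5 days as an explant. Each was cloned on a feeder of embryonic fibroblasts treated with mitomycin C, in RPMI with 20% fetal calf serum, and grown further on gelatin. No treatment or genotype separates them, each is 1 clone measured on 1 U74A array, and the sex of the embryos is not given in the sources used here. With 1 array a clone there is no test and no replicate check. What can be measured of the error is how far the log2 ratios of probe sets for the same gene spread, with an SD of 0.52 over 806 genes. That spread is between probe sets on the same arrays, so it leaves out variation between arrays or cultures, and ratios that are bounds.

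Levels below are intensities after scaling both arrays to a common median, and the floor below which a level has no order was 17.5. Of non-control probe sets, 60.6% reached it in D16 and 59.3% in D351. Ratios are log2 of D351 over D16. A gene below the floor in 1 clone has a bound, written as at least N-fold. A gene is called past 2-fold where the clones were 2-fold or more apart, and measured where at least 1 clone reached the floor. Cell type markers were checked in both clones. All 6 smooth muscle markers were measured, and 5 of them were past 2-fold with the higher level in D351, with summed levels of 1708 in D16 and 4363 in D351. Of the 7 fibroblast markers, which could also show feeder cells, 3 were past 2-fold towards D351 and 1 towards D16, with sums of 7082 and 9451. Of 6 endothelial markers, Cdh5, Tek, Tie1 and Kdr were below the floor in both clones. Flt1 measured 16.2 and 66.2, at least 3.78-fold towards D351, and Pecam1 30.8 and 20.3, and the list summed to 67.2 and 95.5. Of 5 haematopoietic markers, Ptprc and Itgam were below the floor in both. Cd68 was at least 2.11-fold higher in D351, Spi1 and Gata1 reached the floor in D16 alone, and the sums were 56.8 and 55.5. Of 5 neural markers, Nes was 3.51-fold higher in D351 (28.6 and 100.3), Tubb3 measured 723 and 466, and 3 were below the floor in both. Of 3 skeletal muscle markers, 2 were measured and 0 were past 2-fold. All 4 trophoblast and germ cell markers were below the floor in both clones. Of 5 proliferation markers, 4 were past 2-fold towards D16, with sums of 3166 and 777. The part of these markers in the results that follow was not tested, and fewer cells of a type and less RNA per cell cannot be told apart in such samples.

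Of the 8 genes counted, Sgce and Ndn were past 2-fold towards D351, Mest and Peg3 past 2-fold towards D16, and 4 were not past 2-fold. Of these 4, Igf2, Igf2r and Gnas were measured in both clones, while Grb10 has a bound and so may differ by more. The background over all 6100 measured genes was 10.5% past 2-fold towards D351 and 8.82% towards D16, or 19.3% either way. The 4 genes past 2-fold were 4 of the 5 paternally expressed genes measured. Among maternally expressed genes, Igf2r was within 2-fold and Grb10 at least 1.86-fold apart, while the probe set of H19 and Mir675, outside these counts, was 8.10-fold apart. Whether the parental groups differ was not tested. The median log2 ratio of the 8 genes was 0.17, with bounds entered at their value, against -0.03 over all genes.

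**Figure D1:**
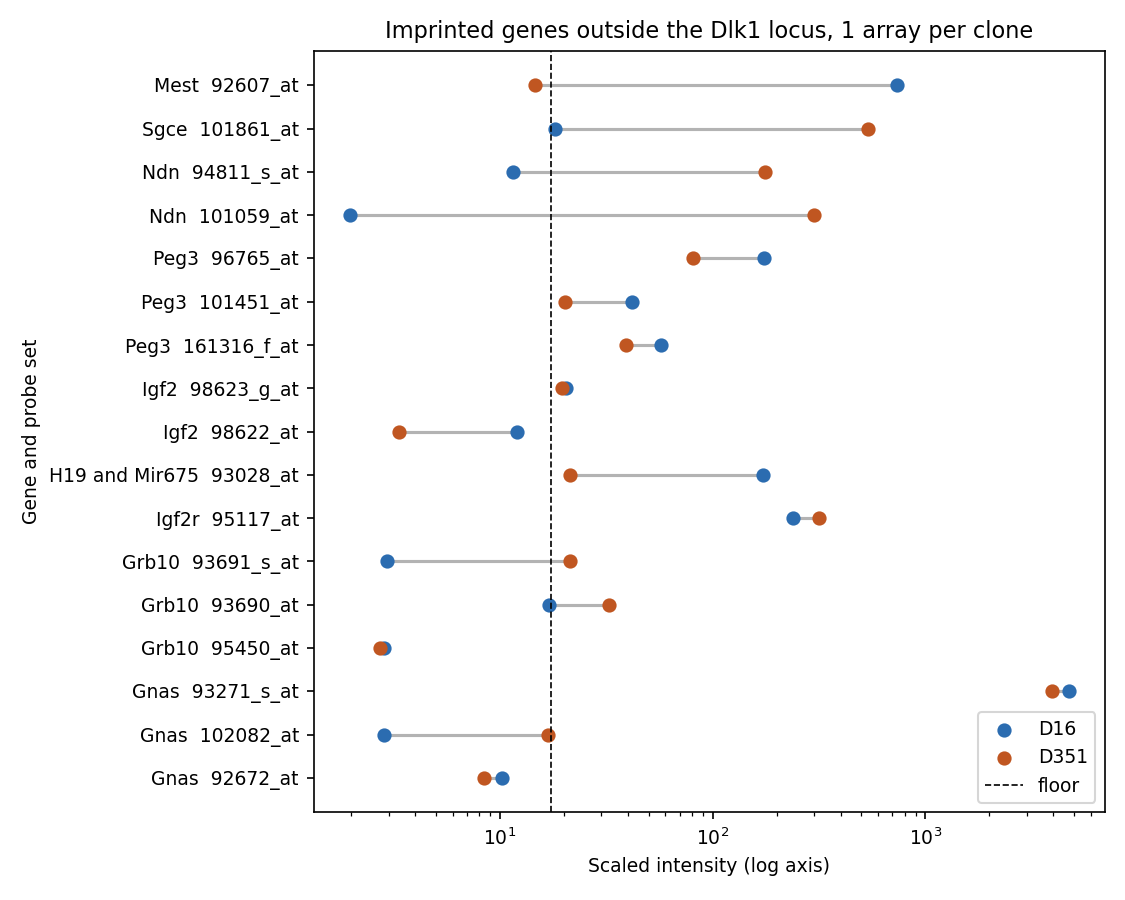
Scaled intensity on a log axis of each of the 17 probe sets in clone D16 (blue) and clone D351 (orange), 1 array each, with the floor of 17.5 as a dashed line. Mest lies at 739 in D16 and below the floor in D351, while Sgce and both probe sets of Ndn lie near or below the floor in D16 and far above it in D351.

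The promoter sequences of Mest and Ndn are shown because every probe set of these genes at or above the floor differed by at least 2-fold, in opposite directions. They are RefSeq windows of build GRCm38.p6 from 250 bases before to 50 bases after an annotated start. Such windows were matched by symbol for 8 of the 10 genes, not for Sgce and H19. The first Mest window is chr6:30733256-30733555 on the plus strand, the second Mest window is chr6:30737800-30738099 on the plus strand, and the Ndn window is chr7:62348027-62348326 on the plus strand. Capitals mark CG dinucleotides, the places where DNA methylation is set in mammals.
Mest, first start: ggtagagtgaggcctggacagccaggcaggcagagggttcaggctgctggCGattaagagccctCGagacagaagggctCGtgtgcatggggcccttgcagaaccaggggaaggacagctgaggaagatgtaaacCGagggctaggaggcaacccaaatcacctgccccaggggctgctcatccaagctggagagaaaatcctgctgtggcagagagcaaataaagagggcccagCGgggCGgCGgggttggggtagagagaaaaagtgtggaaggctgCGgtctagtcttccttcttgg
Mest, second start: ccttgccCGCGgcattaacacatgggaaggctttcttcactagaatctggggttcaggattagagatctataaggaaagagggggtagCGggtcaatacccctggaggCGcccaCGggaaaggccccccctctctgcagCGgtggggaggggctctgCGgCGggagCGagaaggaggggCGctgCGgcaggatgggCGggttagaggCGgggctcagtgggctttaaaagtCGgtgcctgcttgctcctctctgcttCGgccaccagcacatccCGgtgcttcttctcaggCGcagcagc
Ndn: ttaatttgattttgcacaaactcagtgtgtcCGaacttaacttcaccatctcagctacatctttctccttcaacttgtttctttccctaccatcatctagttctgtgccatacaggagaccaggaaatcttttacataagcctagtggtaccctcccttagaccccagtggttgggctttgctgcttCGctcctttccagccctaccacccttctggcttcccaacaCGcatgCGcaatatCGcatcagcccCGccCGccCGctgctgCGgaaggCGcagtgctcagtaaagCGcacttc

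The first Mest window held 8 CG dinucleotides, the second 17 and the Ndn window 11. Over all 32851 windows of the same length the median was 7, and 48.6%, 31.4% and 41.4% of them held at least as many, so none of the 3 windows was unusually rich in CG. Among the members not past 2-fold, the richest windows were one of Grb10 with 45 CG, which 1.93% of windows reached, and one of Gnas with 40. The GC box GGGCGG, searched on both strands and itself holding a CG, occurred 1 time in each of these Mest windows and 2 times in that of Ndn, and 35.7% of all windows held it. TATAAA, held by 13.6% of windows, and GCCATNTT, the core bound by the factor YY1, held by 6.05%, were not in these windows on either strand. The array does not measure methylation, so these letters describe the sites only.

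Mest and H19 also host microRNA genes, Mir335 and Mir675, whose mature sequences in RefSeq are shown with the seed (bases 2 to 8) in capitals, because both hosts are among the members and Mir675 shares its probe set with H19. None of the 4 shares its seed with another of them, and levels of the mature forms were not analysed here.
mmu-miR-335-5p: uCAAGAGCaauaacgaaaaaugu
mmu-miR-335-3p: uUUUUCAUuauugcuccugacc
mmu-miR-675-5p: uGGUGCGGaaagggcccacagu
mmu-miR-675-3p: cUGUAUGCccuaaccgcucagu

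Mest, which encodes an alpha/beta hydrolase-fold protein of the endoplasmic reticulum and is abundant in embryonic mesoderm, measured 739 in D16 and 14.7 in D351 by its single probe set. The D351 level was below the floor, which gives a fold of at least 42.3 towards D16 and a log2 ratio of -5.40 or lower. No other of the 6100 genes had a lower ratio, with bounds entered at the floor. Its promoter windows are those printed above.

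The nearest measured genes on chromosome 6 did not share this difference. The 6 nearest, 3 on each side, had log2 ratios from -0.94 (Zc3hc1) to 1.00 (Exoc4), a median of 0.26 and 3 positive values, and none was past 2-fold towards D16. They are not close: 11 annotated genes lie between Zc3hc1 and Mest, and 30 between Mest and Chchd3.

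Sgce, which encodes epsilon-sarcoglycan, a membrane protein of the dystrophin-associated complex outside and inside muscle, measured 18.2 in D16 and 538 in D351. Its level was 29.6 times that of D16 in D351 (log2 ratio 4.89), and 6 of the 6100 genes had a higher one. The D16 level was just above the floor, so the size of the ratio rests on a value near it. Sgce has 1 probe set, so there is no second reading of it.

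All 6 measured genes nearest to Sgce on chromosome 6 had positive ratios, with a median of 1.13, and 4 were past 2-fold. Over all genes, 10.5% were past 2-fold towards D351, and 2962 of 6100 ratios were positive. Pon3 and Pdk4 are bounds, entered at their value. Col1a2 is also one of the fibroblast markers above, and its part in this row of genes was not tested. Gng11, a G protein gamma subunit, measured 31.1 and 80.5, and the collagen gene Col1a2 measured 1693 in D16 and 3438 in D351. Pdk4, a kinase that inhibits pyruvate dehydrogenase, had a level of 10.8 in D16, under the floor, and of 314 in D351, a log2 ratio of at least 4.17. Between Sgce and these genes lie 4 (Col1a2) to 15 (Pdk4) other annotated genes. Peg10, the paternally expressed retrotransposon-derived neighbour known to share a promoter region with Sgce, was below the floor in both clones at 8.15 and 5.80, by a single probe set with the suffix r, for which probe selection rules were relaxed. Pon2, a lactonase gene of this region, was 2.35-fold higher in D351 (49.7 and 117). Pon3 measured 20.5 in D351 and was under the floor in D16, and Calcr and Tfpi2 were under it in both.

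Of 11 listed genes of the sarcoglycan and dystrophin complex, 9 were on the array and 6 at or above the floor, with a median log2 ratio of 0.05. Of these 6, 4 had positive and 2 negative ratios, bounds entered at their value. Sspn, which encodes sarcospan, was 2.26-fold higher in D351 (132 and 297), and 0 were called past 2-fold towards D16. Sgcd, a sarcoglycan gene, went towards D16, with 28.3 there and 9.16, under the floor, in D351. Its ratio is a bound of 1.62-fold, which does not place it within 2-fold. Sgcb, the beta-sarcoglycan gene, measured 35.4 and 36.8. Dag1, which encodes dystroglycan, measured 279 and 441.

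Ndn encodes necdin, a MAGE family protein that restrains growth and is known for its role in neurons and muscle progenitors. Its first probe set measured 1.97 in D16 and 299 in D351, and its second, of the kind that can match other transcripts, measured 11.5 and 176. Both were below the floor in D16 and far above it in D351, with folds of at least 17.1 and at least 10.1. By the first of these, 11 of the 6100 genes had a higher log2 ratio than its bound of 4.10.

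In the domain that corresponds to the human Prader-Willi region, Mkrn3, a paternally expressed ring finger gene with 1 annotated gene between it and Ndn, measured 19.7 in D16 and was below the floor in D351. Magel2, a MAGE family neighbour, was below the floor in both at 1.08 and 3.16. Ube3a, the maternally expressed ubiquitin ligase of this domain, measured 44.3 and 52.4. The 6 nearest measured genes ran from -1.17 to 0.24, with 1 positive ratio, and the lowest, the transcription factor gene Klf13, was past 2-fold towards D16 (132 and 58.7). Mkrn3 and Oca2 are bounds, entered at their value. On one side the genes are not close, with 247 annotated genes between Ube3a and Ndn. Of the necdin partner genes, Maged1, another MAGE family gene, was 3.17-fold higher in D351 (382 and 1212), and E2f1, whose product necdin binds, measured 64.8 and 41.4.

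Peg3 encodes a large zinc finger protein linked to growth, cell death and maternal behaviour. All 3 of its probe sets were lower in D351. They measured 174 and 80.7, then 57.1 and 39.1, then 41.7 and 20.3, in D16 and D351. Their log2 ratios were -1.11, -0.55 and -1.04, and the brightest gave 2.16-fold higher in D16. Scaled on the hybridization controls, Peg3 moved to -0.72 and was within 2-fold. That scaling raised the median of all genes to 0.34 and put 1203 genes past 2-fold towards D351 and 246 towards D16, against 641 and 538. Relative to that median, Peg3 was at -1.06.

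Around Peg3 on chromosome 7 the 6 nearest measured genes lay between -0.64 and 0.20, with a median of -0.12. The lowest, Zfp110, is not close, with 228 annotated genes between it and Peg3, and Rasl2-9 is a bound. The paternally expressed neighbour Usp29, which is transcribed from the same imprinted region, was below the floor in both clones. Siah1a, whose product binds that of Peg3, measured 71.1 and 87.7.

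The probe set of H19 and Mir675 measured 172 in D16 and 21.3 in D351, 8.10-fold higher in D16 with a log2 ratio of -3.02. H19 is a maternally expressed non-coding RNA, abundant in embryonic mesoderm and known to be lowered after birth. The D351 level is near the floor. The difference was in the direction of Mest and Peg3.

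Igf2, the growth factor gene that shares enhancers and an imprinting control region with H19, was near or below the floor in both clones. One probe set measured 20.4 in D16 and 19.5 in D351, and the other was at 12.0 and 3.36, below the floor. The log2 ratio of the first was -0.06, and it turned to 0.05, 0.03 and 0.33 with quantile, loess and hybridization control scaling. Relative to the median of all genes, the last of these was -0.02. A difference in Igf2 was not measurable at these levels. Of the other imprinted genes of the same distal part of chromosome 7, those measured in both clones lay within 2-fold. Cd81 measured 915 and 1070, Tssc4 220 and 162, Nap1l4 112 and 105, and Osbpl5 169 and 288. The potassium channel gene Kcnq1 measured 35.2 and 30.1, and the transporter gene Slc22a18 37.0 and 32.4. Others have bounds alone, which do not place them within 2-fold. Tspan32 had 21.3 in D16 and 10.6 in D351, and Dhcr7, which encodes an enzyme of cholesterol synthesis, had 23.9 and 4.99, both under the floor in D351. Phlda2, Ascl2 and Th were under it in both clones. Cdkn1c, the maternally expressed cell cycle inhibitor, had 10.1 in D16, under the floor, and 20.8 in D351. Lsp1, a leukocyte-specific cytoskeletal gene with 4 annotated genes between it and H19, was lower in D351 (301 and 84.1, a log2 ratio of -1.84). It was the lowest of the 6 measured genes nearest to H19, and the only 1 past 2-fold. The 6 ran up to 0.26, with a median of -0.18 and 2 positive ratios, bounds entered at their value.

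Igf2r is the maternally expressed receptor that binds lysosomal enzymes and takes up IGF2 for degradation. It measured 240 in D16 and 315 in D351, 1.32-fold higher in D351. Its log2 ratio of 0.40 is smaller than the probe set SD, and 1714 of 6100 genes had a higher one. Its 6 nearest measured genes on chromosome 17 all had negative ratios, from -0.87 to -0.35, against 3138 of 6100 over all genes. Plg and Slc22a2 are bounds, entered at their value. The nearest on one side, the imprinted transporter gene Slc22a2, had 22.3 in D16 and 15.9 in D351, under the floor. The 4 other genes of the IGF axis that were measured lay within 2-fold as well, with a median log2 ratio of -0.45. Igf1 measured 108 and 84.3, and the receptor gene Igf1r 439 and 301, while Insr, Irs1 and Irs2 were below the floor in both clones.

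Grb10 encodes an adaptor that binds and dampens the insulin and IGF1 receptors. One probe set measured 17.1 in D16, just below the floor, and 32.6 in D351, at least 1.86-fold higher. Another measured 2.95 and 21.3, at least 1.22-fold, and the third was below the floor in both, at 2.85 and 2.75. No probe set of Grb10 was higher in D16 among those at or above the floor. With hybridization control scaling the log2 ratio was 1.09, past 2-fold. Relative to the median of all genes it was 0.74 there, against 0.92 with the main scaling.

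Gnas, which encodes the stimulatory G protein alpha subunit and, from other promoters, further proteins, was bright in both clones by a single one of its probe sets, at 4720 in D16 and 3957 in D351. That probe set has the suffix s and can match several transcripts. Its log2 ratio of -0.25 is smaller than the probe set SD and turned to 0.16, 0.01 and 0.14 with quantile, loess and hybridization control scaling. Relative to the median of all genes, the last of these was -0.21. The other probe sets were below the floor in both clones, at 2.85 and 16.8 and at 10.2 and 8.45. The annotation names the gene and not the transcript, so these cannot be assigned to its parental forms here. Of 15 G protein partner genes, all at or above the floor, 3 were past 2-fold towards D351 and 0 towards D16. These were the gamma subunit gene Gng12 (181 and 574) and the adenylyl cyclase genes Adcy3 (below the floor and 50.4) and Adcy6 (121 and 259). Another probe set of Gng12 was below the floor in both clones, at 9.43 and 15.9. The list of 15 had a median log2 ratio of 0.43. Over all genes the median was -0.03, with 10.5% past 2-fold towards D351 and 8.82% towards D16.

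For Snrpn, which encodes a protein of the spliceosome's Sm core, other genes of that core were measured. All 4 on the array lay within 2-fold, with a median of -0.04. Snrpb, which encodes the closely related protein of other tissues, measured 3123 and 1885 by a probe set with the suffix r.

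**Figure D2:**
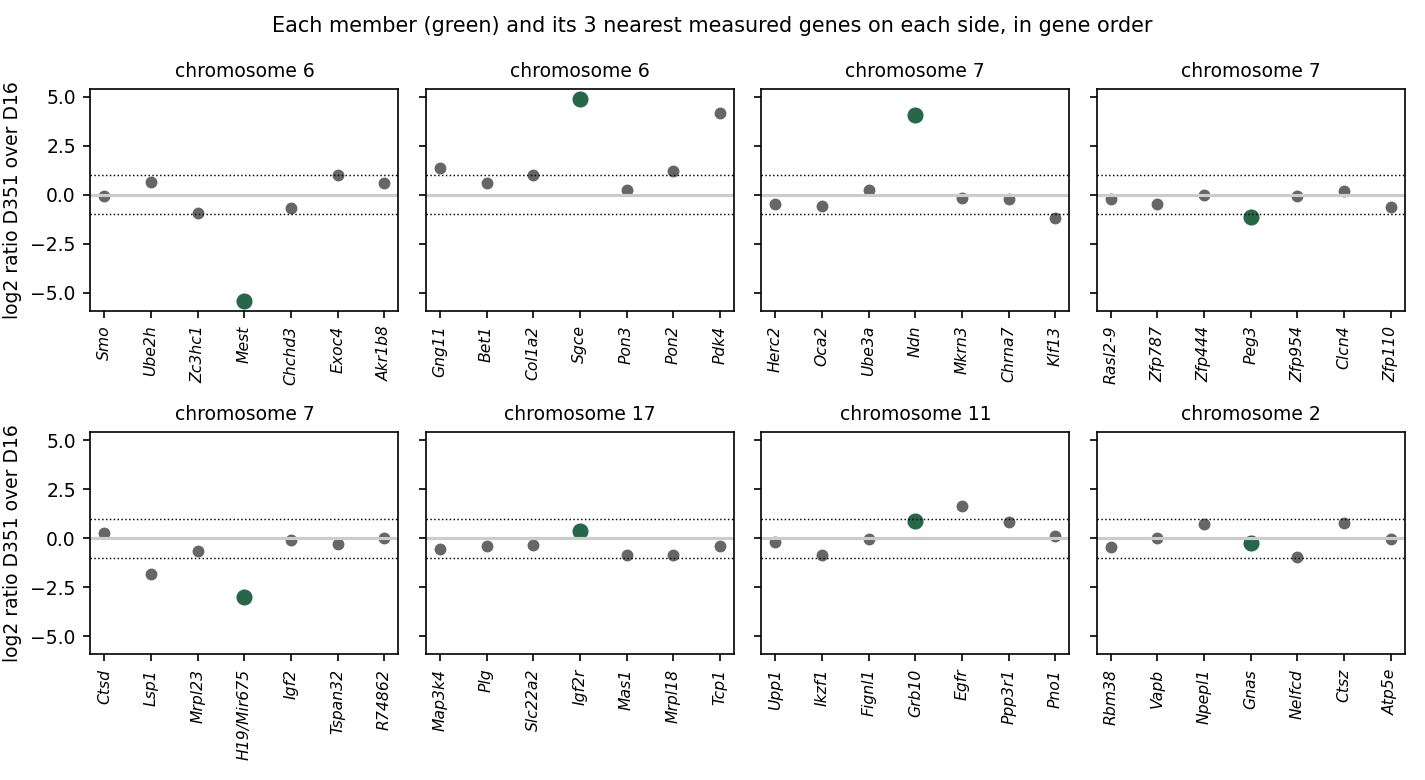
log2 ratio of D351 over D16 for a member of each locus (green) and its 3 nearest measured genes on each side (grey), in gene order along the chromosome, with dotted lines at 2-fold; bounds are drawn at their value. The neighbours of Sgce are all above 0 and Pdk4 is near 4, while those of Mest lie between -0.94 and 1.00, those of Ndn between -1.17 and 0.24, and those of Peg3 between -0.64 and 0.20.

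By parental copy, the 5 paternally expressed genes ran from -5.40 to 4.89 with a median log2 ratio of -0.06, so the group had no common direction. By locus, the 2 genes on chromosome 6, Mest and Sgce, went opposite ways. On chromosome 7, Ndn went one way and Peg3 and the H19 and Mir675 probe set the other, in 3 separate imprinted domains. At the Dlk1 locus, for comparison, the maternally expressed Meg3 was higher in D351 by at least 116-fold with one probe set and by 61.3-fold with another, and the paternally expressed Dlk1 was 2.98-fold higher in D16 (5936 and 1994).

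Other imprinted genes were taken from a list of 59, many of them imprinted in some tissues or stages alone. Of these, 35 were on the array and 23 measured. Past 2-fold towards D351 were 4, and towards D16 0, with a median log2 ratio of 0.23 against -0.03 over all genes, and 14 of 23 had positive values. They were Gab1, an adaptor of growth factor receptors (44.3 and 141, with at least 1.76-fold for another probe set), Slc38a4, an amino acid transporter gene (37.8 and 115), Impact, an inhibitor of the amino acid sensor GCN2 (24.0 and 49.5, by a probe set with the suffix r), and Pon2. In the set of paternally expressed ones, 3 of 6 were past 2-fold, and in that of maternally expressed ones 1 of 17. Over all genes, 19.3% were past 2-fold either way and 10.5% towards D351, and the difference between the parental sets was not tested. Plagl1, a zinc finger regulator of other imprinted genes, measured 34.5 in D16 and 34.9 in D351. None of the 23 reached the size of Mest, Sgce or Ndn.

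**Figure D3:**
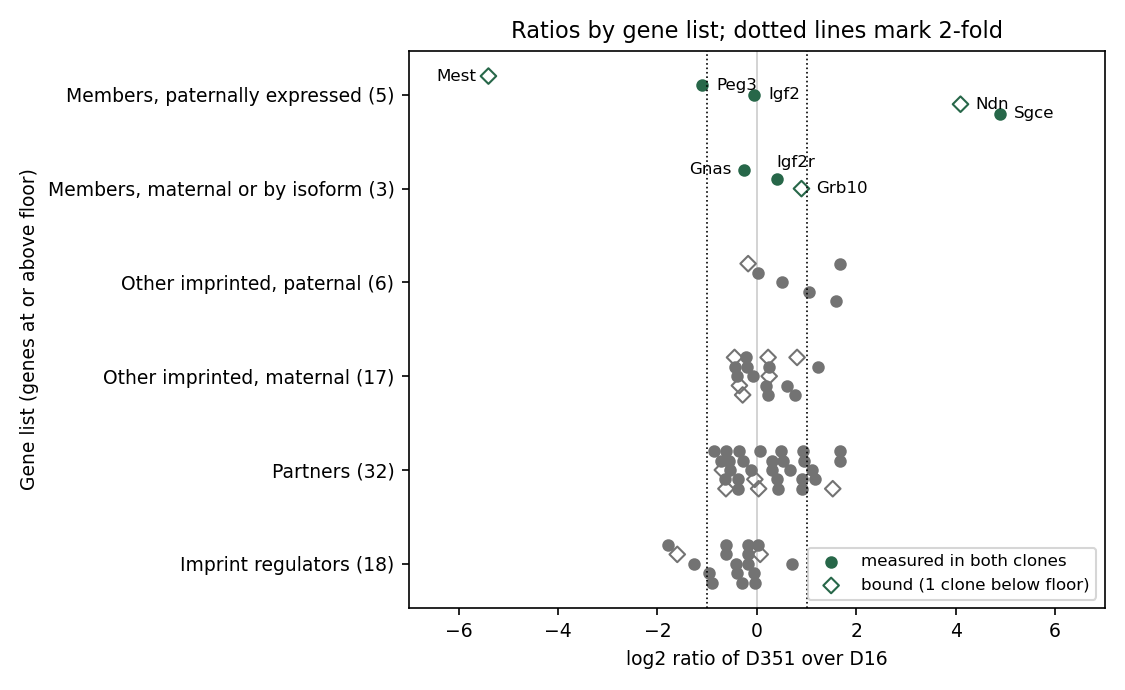
log2 ratio of D351 over D16 for each measured member, other imprinted gene, partner gene and imprint regulator, by list, with the number of genes in brackets and dotted lines at 2-fold; filled points were measured in both clones and open diamonds are bounds. Mest, Ndn and Sgce lie beyond 4 in size, whereas all genes of the other 4 lists drawn lie between -1.79 and 1.67.

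Of 28 listed genes that set, protect or read imprints, 20 were on the array and 18 at or above the floor, with a median log2 ratio of -0.35 and 15 negative values. Past 2-fold towards D16 were 3, and towards D351 0, against 8.82% and 10.5% of all genes. Over all genes the median was -0.03, and 3138 of 6100 ratios were negative. Zfp57, a zinc finger protein that protects methylated imprinting control regions in the early embryo, measured 53.1 in D16 and was below the floor in D351, at least 3.03-fold higher in D16. Uhrf1, which brings the maintenance methyltransferase to replicated DNA, measured 210 and 87.6. Hells, a chromatin remodeller needed for DNA methylation, measured 83.2 and 24.0, near the floor. Dnmt1, the maintenance methyltransferase gene itself, measured 333 and 215, and Trim28, the partner of ZFP57, 1638 and 1070, both within 2-fold. With hybridization control scaling the list had 2 genes past 2-fold towards D16 and 1 towards D351, and its median turned to 0.04, or -0.31 relative to the median of all genes. The 5 proliferation markers had a median of -2.26, and their part in this difference was not tested.

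**Figure D4:**
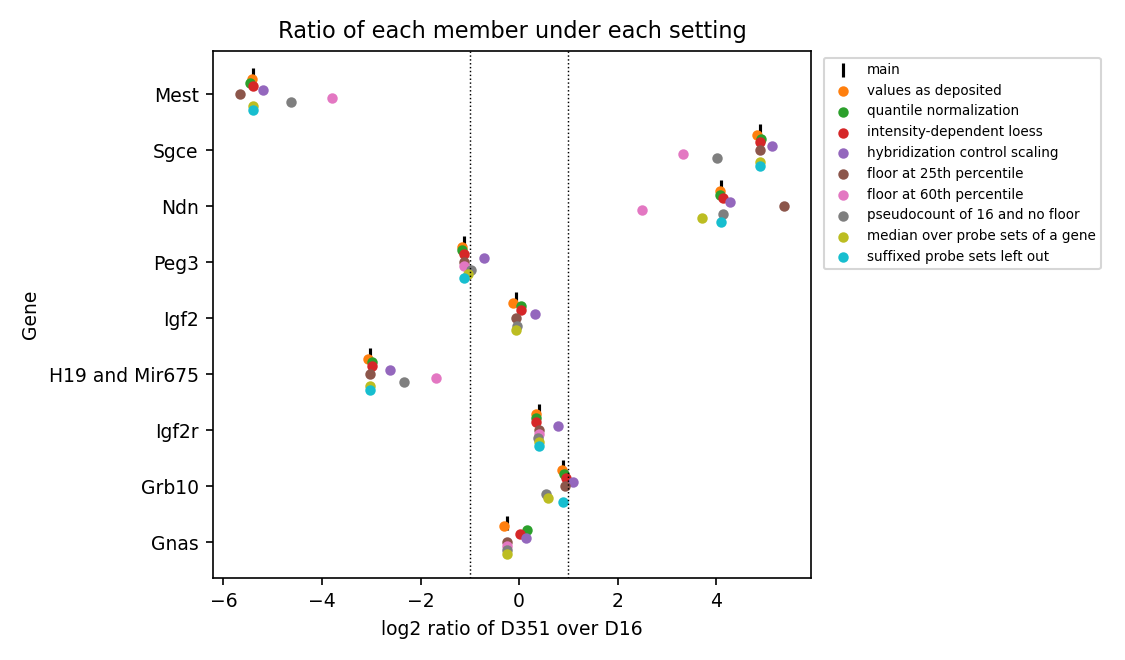
log2 ratio of D351 over D16 of each member under the main setting (black bar) and the alternatives in scaling, floor and choice of probe set (coloured points), with dotted lines at 2-fold. Mest, Sgce, Ndn and the H19 and Mir675 probe set keep their direction and stay past 2-fold in every setting drawn, while Peg3 and Grb10 lie near the line and Igf2 and Gnas around 0.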

How the data were processed

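Total RNA of 2 clones was measured with 1 array each. The table deposited by the authors gives 1 intensity per probe set on a linear scale. Software and scaling: not given in the sources used here. Gene names came from a platform annotation, with symbols updated by Entrez number to RefSeq (GRCm38.p6). Of 12422 non-control probe sets, 10833 had 1 symbol, 396 several and 1193 none, and those with several named no gene.

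Arrays were scaled to a common median (factors 0.983 and 1.02). The floor was the mean over arrays of the 40th percentile, 17.5. Values below it were set to it, then log2 ratios taken. Of several probe sets for a gene, the one brightest by mean log2 level stood for it. No test was possible, so genes past 2-fold were counted. Having 1 array a clone limits the precision. Members and lists were chosen with earlier results of these data known. By rule, the text names every member and probe set, genes past 2-fold in the lists of other imprinted, partner and regulator genes, and imprinted neighbours at or above the floor at each locus. Single marker genes, partners and regulators within 2-fold, imprinted genes under the floor, and single neighbours were chosen after their values were seen. The promoter sequences printed were those of members past 2-fold by every probe set at or above the floor. Sgce met this too but had no promoter window matched by symbol. The calculation was tested on simulated arrays. Alternatives covered scaling, floor, probe set rule and threshold. Python 3.11.15, numpy 2.4.6, pandas 2.3.3, statsmodels 0.14.6 and matplotlib 3.10.9 were used.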

Additional observations from a re-analysis of the deposited data

Results flagged for a closer look

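A probe set lay outside the count of genes because it carries 2 symbols, H19 and Mir675. Its signal was well above the floor in D16 and near it in D351. The probe set was 8.10-fold higher in D16, at 172 in D16 and 21.3 in D351. Whether its probes read H19 RNA alone was not tested.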

How the results depend on the processing

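No paired analysis was possible because there are no replicates to pair, and none could be left out in turn. Of 77 log2 ratios of members and of the H19 and Mir675 probe set under the alternatives, 69 moved by less than the probe set SD and 8 by more. No gene past 2-fold changed sign, while Igf2 (-0.12 to 0.33) and Gnas (-0.31 to 0.16), near 0, did. The 8 all came from another floor or a pseudocount, which set the size of ratios with a level near or below the floor. Mest ranged from -5.66 to -3.79, Sgce from 3.33 to 5.13, Ndn from 2.49 to 5.37 and the H19 and Mir675 probe set from -3.07 to -1.69. Members at least 2-fold higher in D16 numbered 1 in place of 2 with hybridization control scaling, with a pseudocount of 16 or at 4-fold, since Peg3 dropped out, and 3 with the H19 and Mir675 probe set counted, an alternative added after seeing the data; those higher in D351 numbered 2 or 3.

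Over all genes, those higher in D351 and D16 numbered 1203 and 246 with hybridization control scaling, 404 and 324 with the floor at the 60th percentile, 1285 and 1277 at 1.5-fold, and 138 and 77 at 4-fold. With the floor at the 25th percentile 850 were higher in D16. Other imprinted genes higher in D351 numbered 7 in place of 4 with the floor at the 25th percentile, with 3 higher in D16, 7 at 1.5-fold and 0 at 4-fold. Partner and regulator genes higher in D351 numbered 11 in place of 5 with hybridization control scaling and at 1.5-fold, and 0 at 4-fold. Those higher in D16 numbered 1 in place of 3 with the floor at the 60th percentile, 13 at 1.5-fold and 0 at 4-fold. Levels near or below the floor limit Igf2 and Grb10. They also limit the size of the ratios of Mest, Sgce, Ndn and the H19 and Mir675 probe set. A single probe set limits Mest and Sgce.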
